A study of Mus musculus with 9 samples.

Results

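The gene expression landscape of the adult wild-type (WT) mouse striatum was described from the 3 WT libraries of a series of 9. All 15464 genes of the deposited table of normalized counts were ranked by their mean over the 3 WT columns, with no filter. The animals were male WT littermates of the *Shank3B* mutant line on a C57BL/6J background, aged 10 to 12 weeks. They carried no targeted allele of *Shank3*, and the striatum of 1 mouse gave 1 library of poly(A)-selected, strand-specific mRNA. The series also holds 3 heterozygous and 3 knock-out libraries, which entered only a description of spread and the place of 2 WT list sums among all 9 libraries, and genotypes were not tested against each other. A whole dissected striatum mixes neurons, glia, vessels and fibres of passage, so every value is a tissue average, and 3 mice allow no two-sided sign test below p = 0.25 even in an exact test.

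The striatum is the input nucleus of the basal ganglia. Most of its neurons are inhibitory projection neurons that receive glutamate from cortex and thalamus and dopamine from the midbrain. They form a direct pathway, whose cells make the dopamine receptor *Drd1* with substance P and dynorphin, and an indirect pathway, whose cells make the dopamine receptor *Drd2* with enkephalin and the adenosine receptor *Adora2a*. Cholinergic and GABAergic interneurons, oligodendrocytes, astrocytes and microglia make up the rest of the tissue.

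The normalized counts summed to 31354274 in WT replicate 1, 32888468 in replicate 2 and 31507479 in replicate 3, with medians of 643, 625 and 638 per gene. These are scaled values, and the depth in reads is unknown. Of the 15464 genes, 15109 were above 0 in all 3 WT libraries and 4 were listed at 0 in all of them. No value above 0 was identical between libraries, so each library was counted once.

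WT replicate 3 stood apart in the genes that define the tissue. All 36 measured identity genes of striatal projection neurons were lowest in replicate 3, whereas 36.3% of the 11891 genes with a mean of at least 100 were lowest there. In 27 of the 36, replicate 3 lay at least 0.5 on the log2 scale below both other libraries, against 1.64% of the 11891 genes. The summed count of 22 projection neuron genes was 368763 in replicate 1, 411984 in replicate 2 and 226788 in replicate 3, which put replicate 3 at 58.1% of the mean of the others and lowest of all 9 libraries of the series, while replicate 2 was the highest of the 9 and replicate 1 ranked 7 from the lowest. The 10 oligodendrocyte genes went the other way, with sums of 177828, 166871 and 275803, and replicate 3 was highest for each of the 10, against 30.7% of the 11891 genes, and its sum was the highest of all 9 libraries, with replicates 1 and 2 at ranks 3 and 2 from the lowest. In bulk tissue, fewer cells of a type and less RNA per cell cannot be told apart, and the dissection boundary was not tested. Leaving out replicate 3 raised the mean of each of the 36 identity genes, by 3.0% to 21.6% with a median of 16.5%, and values without it are added below for leading genes.

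Mitochondrially encoded transcripts headed the ranking. They encode core subunits of the respiratory chain and of ATP synthase, which supply the ATP that neurons spend on ion pumping. The 13 genes together held 8.89%, 9.72% and 9.25% of the summed count in replicates 1, 2 and 3, or 9.29% ± 0.42 (SD, n = 3). *mt-Co1*, the catalytic core of cytochrome c oxidase, was first with 852375, 867475 and 831473 normalized counts, 2.67% of all counts. *mt-Atp6*, *mt-Cytb*, *mt-Co2*, *mt-Co3*, *mt-Nd4*, *mt-Nd1*, *mt-Nd5* and *mt-Nd2* took the next places, so that the first 9 genes were all mitochondrial. *mt-Co3* was the unsteady member, at 172933 in replicate 1 against 369449 and 333348 in the others. *mt-Nd6*, the only protein-coding gene on the other strand of the mitochondrial genome, reached only 827, 536 and 446. In the annotation *mt-Atp8* and *mt-Atp6* share bases, as do *mt-Nd4l* and *mt-Nd4*, and *mt-Atp6* ends at base 8607, where *mt-Co3* starts. How reads were split within these groups was not tested.

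The most abundant nuclear gene was *Kif5a*, a kinesin heavy chain that carries cargo along axons, with 112528, 109157 and 119285 normalized counts and rank 10. The other 10 nuclear genes in the top 20 cover neuronal signalling, glia and basic metabolism. *Camk2a*, a synaptic calcium-dependent kinase, averaged 92149 ± 10539 (SD, n = 3). *Slc1a2*, the main glutamate transporter of astrocytes, stood at 88181 ± 6376. *Mbp*, a structural protein of myelin, had 75118 and 69792 in replicates 1 and 2 and 116028 in replicate 3, which gives a mean of 86980 at rank 14, or 72455 at rank 18 without replicate 3. Further places went to *Ndrg4*, the glycolytic enzyme *Gapdh*, *Snhg11*, the vesicle fusion protein *Snap25* and the translation factor *Eef1a1*. The same 20 genes made up the top 20 without replicate 3.

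Long transcripts collect more reads per molecule, so an order by count is not an order of transcript levels, and the most abundant gene of a list below is the gene with the highest mean count. Levels were set against each other after division by transcript length. Per kilobase, 12 of the 20 highest genes were mitochondrial, with *mt-Nd6* the member left out and *mt-Nd3* the lowest of the 12 at 43388 ± 984 (SD, n = 3). *Gapdh* was the highest nuclear gene with this length, at 57403 ± 4302 normalized counts per kilobase (SD, n = 3). Its place depends on the length used, since over all merged exons it had 19722 against 35758 for *Calm2*, and with the median transcript length 144270 against 163753 for *Slc1a2*. On the main length it was followed by *Calm2*, a calmodulin gene, the iron store *Fth1*, *Eef1a1*, the brain creatine kinase *Ckb*, polyubiquitin *Ubb*, the protease inhibitor *Cst3* and the glycolytic enzyme *Aldoa*. *Fth1* varied the most of these, with 30460, 44882 and 52996 per kilobase in replicates 1, 2 and 3. *Kif5a*, first of the nuclear genes by count, fell to rank 43 per kilobase because its transcript has 6295 bases. Of the 50 highest genes on each scale, 33 were shared.

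Expression was concentrated in few genes. The 10 most abundant held 9.31% ± 0.43 of the summed count, the top 100 held 21.7% ± 0.88 and the top 1000 held 52.4% ± 1.1 (SD, n = 3). It took 880 genes to reach 50% of the summed count and 1113 when the mitochondrial genes were set aside. On the per-kilobase scale 373 genes reached 50%, and 908 without the mitochondrial genes. Without replicate 3 the numbers were 877 by count and 373 per kilobase. At the low end, 1368 genes averaged under 10 normalized counts, while 478 averaged at least 10000. Transcripts of 77 cytosolic ribosomal protein genes made up 0.970% ± 0.020 of the sum, small beside the mitochondrial share. These 77 have a number directly after Rpl or Rps in the symbol, so genes such as *Rplp1*, with a mean of 11683, were left out. Nearly the whole table was protein-coding, with 15437 of 15464 genes annotated so.

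**Figure D1:**
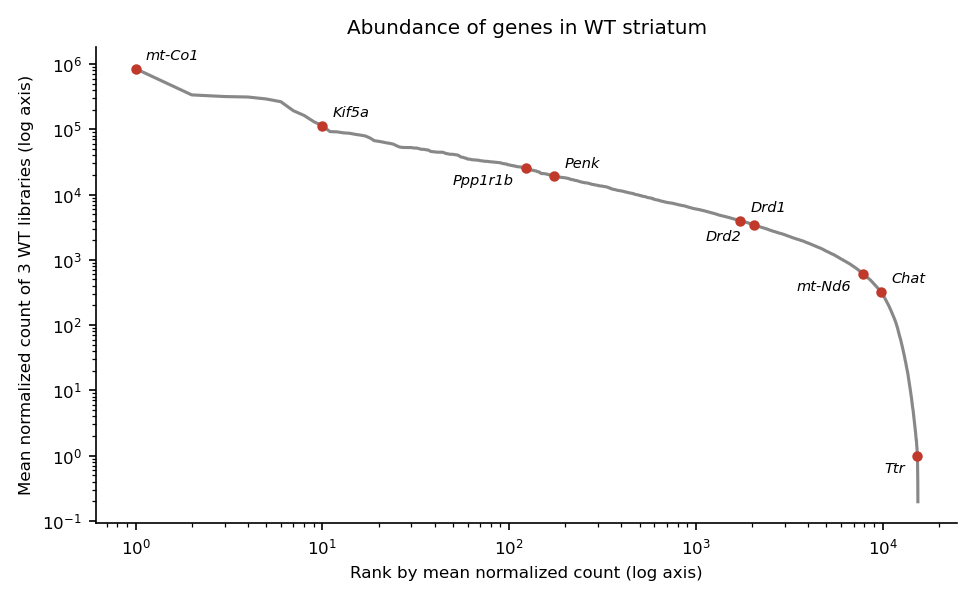
Mean normalized count of the 3 WT libraries for each gene against its rank, both on log axes, with genes named in the text marked in red. The curve runs from *mt-Co1* at 850441 through *Penk* at rank 175 and *Drd1* at rank 1732 down to the choroid plexus gene *Ttr*, whose mean was 0.98.

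The label of the tissue was checked against genes that mark striatal projection neurons. All 22 genes of that list were measured with means above 100, but 11891 of the 15464 genes of the table also reached that level. With the direct and indirect pathway genes, 36 of 37 were in the table. *Gpr52* was the exception and was not analysed here. Of the 36, 17 ranked among the top 1000 of 15464 genes by count. Per kilobase, 19 ranked among the top 1000 of the 15462 genes with a length, and the number was also 19 without replicate 3. The projection neuron list held 1.18%, 1.25% and 0.720% of the summed count in replicates 1, 2 and 3.

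The list holds signalling proteins of dopamine and cAMP. *Ppp1r1b*, which encodes DARPP-32, the phosphatase inhibitor through which dopamine signals are integrated, had 26888, 31982 and 16786 normalized counts in replicates 1, 2 and 3. Its level was 12603 ± 3865 per kilobase (SD, n = 3), or 14710 without replicate 3, at rank 71 or 59. The phosphodiesterases *Pde1b* and *Pde10a*, which degrade cyclic nucleotides, had 28559, 33781 and 16945 and 36309, 39151 and 20026 counts. *Adcy5*, the main striatal adenylyl cyclase, had 34963, 41757 and 20843 counts, or 4641 per kilobase. *Gng7* and *Gnal*, subunits of the G protein that couples dopamine and adenosine receptors to this cyclase, averaged 6598 and 4726 per kilobase, or 7812 and 5494 without replicate 3. In each of these 6 genes replicate 3 lay well below both others.

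Other regulators of the projection neuron were also lowest in replicate 3. *Rgs9*, which speeds the shut-off of G protein signals, had 12088, 12461 and 6178. The sodium channel subunit *Scn4b* averaged 6204 per kilobase, the regulatory phosphoprotein gene *Arpp21* 6477, the phosphatase *Ptpn5* (STEP) 5799 and the small GTPase *Rasd2* (Rhes) 5082. *Rasgrp2*, a Rap activator, averaged 2356 per kilobase, the cannabinoid receptor *Cnr1* 1505 and the actin cross-linker *Actn2* 896. These 3 were also lowest in replicate 3, by -0.89, -0.73 and -0.85 against the mean log2 of the others. Levels per kilobase are those of the main length unless another is named, and for some genes they depend on it strongly. Over merged exons *Rasgrp2* had 437, *Arpp21* 1469 and *Gnal* 1468, and with the median transcript length *Rasgrp2* had 8911. *Scn4b* had 6204 with each length.

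The list also holds transcription factors of striatal development. *Meis2* averaged 2344 ± 419, *Foxp1* 819 ± 176, *Bcl11b*, which encodes CTIP2, 657 ± 173 and the retinoic acid receptor *Rarb* 618 ± 175 per kilobase (SD, n = 3). Without replicate 3 these 4 averaged 2580, 917, 756 and 719. Genes of GABA synthesis and release, which interneurons also use, lay closer to the other libraries in replicate 3 than most of the list. *Gad1* had 14199, 14065 and 12353 counts, a difference of -0.19, and *Gad2* had 7963, 7485 and 5726, a difference of -0.43. The vesicular GABA transporter *Slc32a1* had 5428, 6942 and 4631.

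Direct pathway genes spanned a wide range of levels. *Drd1* had 5028, 4522 and 2370 normalized counts, or 1111 ± 395 per kilobase (SD, n = 3) and 1335 without replicate 3. *Tac1*, the substance P precursor, had 3049, 3070 and 1634 and with the main transcript length was the highest of the 9 per kilobase at 2101 ± 669, or 2487 without replicate 3. Over all merged exons *Tac1* had 760 per kilobase, below the 1209 of *Chrm4* and 1095 of *Drd1*. *Pdyn*, the dynorphin precursor, was steadier at 1642, 1390 and 1130. The muscarinic receptor *Chrm4* averaged 1209 ± 303 per kilobase, the mitochondrial serine transporter *Sfxn1* 608 ± 40 and the nucleotide sugar transporter *Slc35d3* 250 ± 71. *Isl1*, *Ebf1* and *Eya1*, transcriptional regulators of neuronal differentiation, were the lowest of the list by count, with means of 158.0, 272 and 296.

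Among indirect pathway genes, *Penk*, the enkephalin precursor, had 20022, 24454 and 12864 normalized counts and was the highest of the list per kilobase. It reached 13190 ± 4036 (SD, n = 3) per kilobase and rank 67, or 15347 and rank 54 without replicate 3. *Adora2a* had 5994, 8087 and 3555 counts and *Drd2* 3551, 4703 and 2058. *Gpr6*, a receptor with constitutive activity, averaged 866 ± 264 per kilobase, or 1018 without replicate 3, and *Sp9*, a transcription factor required for these cells, 77.2 ± 4.3. *Sp9* barely moved, with 364, 354 and 327 counts.

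Ratios taken within a library remove what a whole library shares. *Adora2a* over *Drd2*, 2 receptors that the same cells express, was 1.69, 1.72 and 1.73 by count in replicates 1, 2 and 3, and 1.66, 1.69 and 1.69 per kilobase. The ratio was thus nearly constant although both genes were lowest in replicate 3. Its size per kilobase is that of the main length. With the median transcript length *Adora2a* averaged 10323 against 1350 for *Drd2*, and over merged exons 1920 against 1350. *Drd1* over *Drd2*, which sets the direct against the indirect pathway, was less constant at 1.01, 0.68 and 0.82 per kilobase. Replicate 1 was near 1 and its order turned with the transcript length, and the levels did not differ beyond the spread between mice. *Penk* exceeded *Pdyn* per kilobase in 3 of 3 libraries, by 20.1, 29.0 and 18.7 times, and exceeded *Tac1* by 5.57, 6.76 and 6.68 times. These orders held with all 3 transcript lengths but the folds did not, with a mean of 8.18 over *Pdyn* for the median transcript length and of 15.5 over *Tac1* for merged exons.

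**Figure D2:**
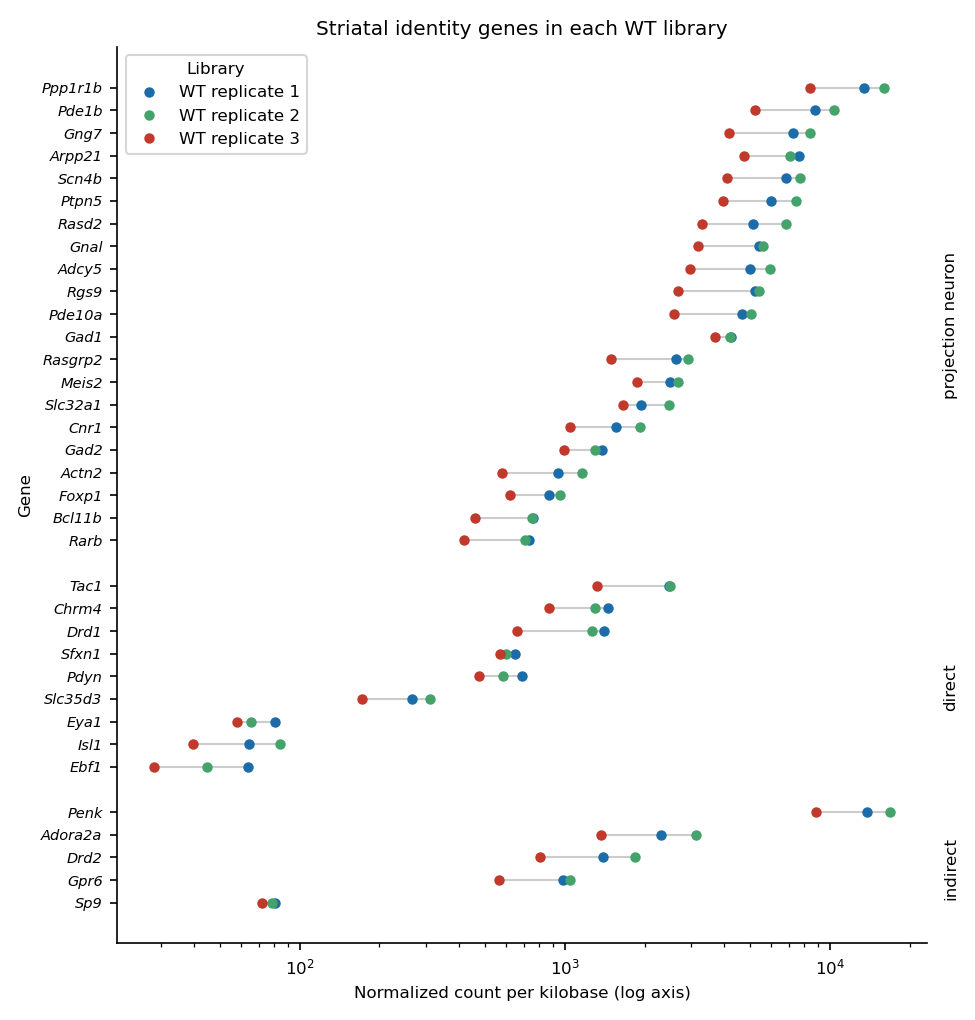
Normalized count per kilobase, on a log axis, of 35 striatal identity genes, with a point for each WT library and a grey line over the range. The red points of WT replicate 3 are the lowest in all 35 genes drawn, and *Ppp1r1b* and *Penk* lead the genes drawn of their groups at 12603 and 13190 on average.

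The 5 cholinergic genes, which make, pack and take up the precursor of acetylcholine or specify these cells, summed to 1347, 1608 and 780 normalized counts. All 5 were lowest in replicate 3, against 36.3% of the 11891 genes. The most abundant cholinergic gene was *Slc5a7*, the choline transporter, at 600, 600 and 317, and *Chat*, the synthetic enzyme, had 341, 429 and 203. The 9 GABAergic interneuron genes summed to 11392, 12086 and 13088. In replicate 3, 3 of the 9 were lowest and 5 highest, against 36.3% and 30.7% of the 11891 genes. Most of the excess in replicate 3 came from *Calb2*, the calcium buffer calretinin, which is also in the olfactory bulb list below. *Sst*, the neuropeptide somatostatin, was the most abundant at 4404, 4620 and 4304, or 6162 per kilobase. Genes of the striosome and matrix compartments summed to 32683, 34123 and 30586, of which the vesicle protein *Sv2b* made up 49.2%. In 7 of these 8 genes replicate 3 was lowest, against 36.3% of the 11891 genes, and *Sv2b* was the exception. The median difference over the list was -0.40 (log2). The striosome marker *Oprm1*, the mu opioid receptor, was low at 85.2, 44.2 and 37.8.

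Glial and vascular lists differed in how steady they were. The 10 astrocyte genes summed to 184097, 198879 and 210120, led by *Slc1a2*. Replicate 3 was highest in 8 of 10, against 30.7% of the 11891 genes. *Gfap*, an intermediate filament that is strong in white matter and reactive astrocytes, differed the most there, with 1791, 1822 and 3867. Oligodendrocyte precursor genes were flat at 7758, 7931 and 8139, with *Olig1* as the most abundant, in contrast to the mature oligodendrocyte genes. The 10 microglial genes summed to 14267, 14983 and 13725, led by the growth factor receptor *Csf1r*, and the 8 measured endothelial and pericyte genes to 9688, 10844 and 10329, led by *Rgs5*. *Slco1a4* and *Ly6c1* of the last list were not analysed here.

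Genes of neighbouring tissue were read for what the dissection could hold. The 10 cortical glutamatergic genes summed to 43667, 46900 and 56417, and replicate 3 was highest in 9 of 10, against 30.7% of the 11891 genes. *Slc17a7*, the vesicular glutamate transporter of cortical neurons, made up 69.8% of the sum with 30867, 32622 and 39130 counts. *Ppp1r1b* over *Slc17a7* was 1.27, 1.43 and 0.62 per kilobase, so on that scale the cortical gene was the higher only in replicate 3. By count the ratio was 0.87, 0.98 and 0.43 in replicates 1, 2 and 3, so the cortical gene had more counts in each library. *Tbr1*, a cortical transcription factor, had 3133, 3309 and 4316. The 6 thalamic and septal genes summed to 1726, 1640 and 3044, and most of the excess came from *Calb2*, which several other cell types also make. The part of these cells in the replicate 3 values was not tested.

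Several defining genes of the choroid plexus were near 0. *Ttr*, its most typical transcript, had 0, 1.0 and 1.9 normalized counts, and *Otx2*, *Kcne2*, *Prlr* and *Slc4a5* also averaged under 10. Above that lay *Clic6*, a chloride channel protein, with 207, 176 and 112, *Aqp1*, a water channel, with 15.9, 5.1 and 76.6, *Kl* with a mean of 41.9 and *Folr1*, a folate receptor, with a mean of 10.9. The list sum of 6052, 6623 and 8553 was 96.2% *Enpp2*, which oligodendrocytes also make. Ependymal genes were low at 408, 403 and 654, with *Foxj1*, the regulator of motile cilia, as the most abundant. Replicate 3 was highest in 6 of 6, against 30.7% of the 11891 genes, but only 2 of the 6 had a mean of at least 100. Meningeal fibroblast genes summed to 1510, 2266 and 2515, led by the growth factor *Igf2*. The 3 measured blood genes summed to 1624, 2404 and 3926, led by the alpha globin *Hba-a2*, while *Hba-a1* and *Hbb-bs* were not analysed here.

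The scaffold and receptor genes of the excitatory synapse had a median SD over members of 0.17 and 0.18 on the log2 scale, against 0.47 for the projection neuron list and 0.117 for the 11891 genes. The 13 postsynaptic scaffold genes summed to 109146, 123496 and 109049, and *Dlg4*, which encodes PSD-95, was the most abundant. *Shank3* had 7209, 8812 and 6043 normalized counts in these WT animals, *Shank1* 9843, 10647 and 11258 and *Shank2* 5887, 6371 and 6120. *Dlgap3*, a scaffold partner enriched in striatum, had 13014, 18128 and 12672. The 10 ionotropic glutamate receptor genes summed to 95740, 93558 and 82784, with *Gria2* at the highest mean count. Per kilobase *Grin1*, the obligatory NMDA receptor subunit, was above *Gria2* in 3 of 3 libraries with the main transcript length, at means of 5233 and 2213, but with the median transcript length in only 1 of 3. Per kilobase, *Grin2b* exceeded *Grin2a*, another NMDA receptor subunit, in 3 of 3 libraries with each transcript length, but the mean fold was 17.8 with the main length and 172 with the median length.

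The 12 immediate early genes, which neurons transcribe within minutes of activity, summed to 40778, 33592 and 41138, and *Egr1* was the most abundant at 13806, 13508 and 15743. The 11 clock and glucocorticoid genes summed to 31385, 25492 and 25586, led by the nuclear receptor *Nr1d1*, and replicate 1 was highest in 9 of 11, against 36.3% of the 11891 genes. The 10 reference genes, used to standardize assays, summed to 186719, 209253 and 196903. *Hprt* was steady among them at 3141, 3065 and 3108, and *B2m*, a subunit of class I histocompatibility proteins, was less so at 1510, 1672 and 1960.

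**Figure D3:**
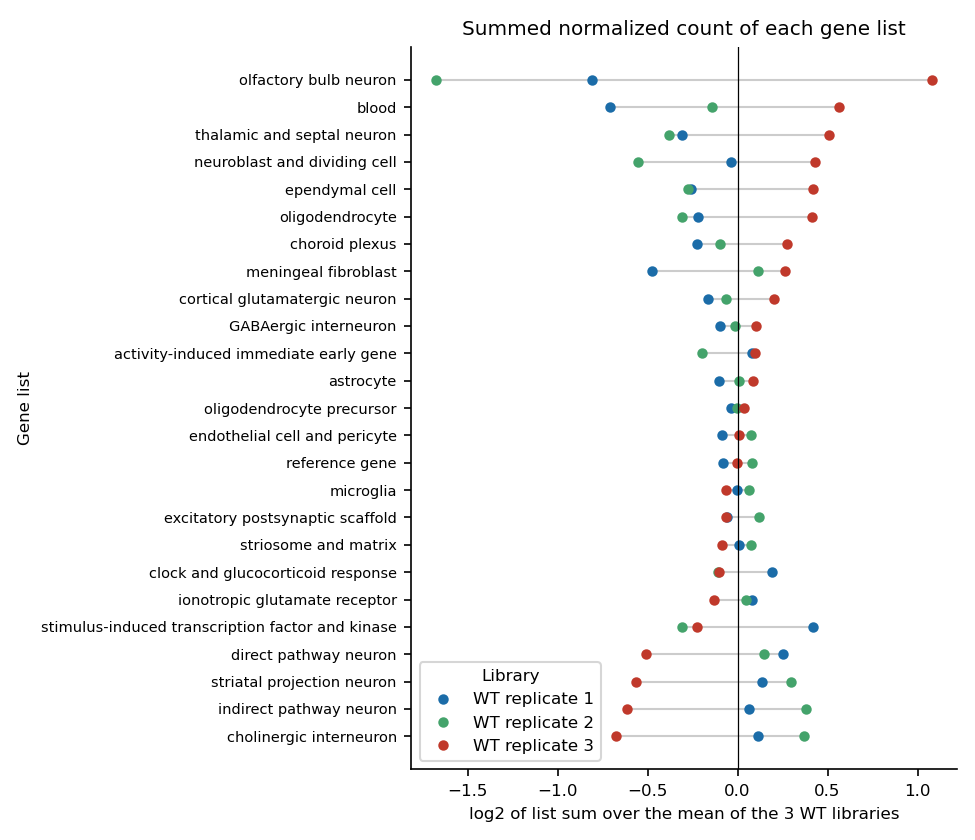
Summed normalized count of each gene list in each WT library, as log2 over the mean of the 3 libraries. The cholinergic, indirect pathway, projection neuron and direct pathway lists lie farthest to the left in replicate 3. The olfactory bulb list, chosen after the values were seen, and the blood and the thalamic and septal lists lie farthest to the right. The oligodendrocyte list also lies to the right, with a sum of 275803.

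Spread between the 3 mice was measured as the SD of log2(normalized count + 1) among the 11891 genes with a mean of at least 100. The values chose the genes below, so they are a description with no test. The median SD was 0.117, and 205 genes (1.72%) had an SD of at least 0.5. Leaving out replicate 2 gave 326 such genes, and leaving out replicate 3 gave 170. Of the 20 most variable genes, 10 stayed in the top 20 without replicate 3 and 13 without replicate 1. As a description of libraries that the ranking did not use, the same 11891 genes had a median SD of 0.179 within the heterozygous and 0.157 within the knock-out libraries. The 20 most variable genes had a median SD of 1.14 in WT and of 0.576 and 0.859 within those other groups, so they varied more than typical genes there too. The last gene inside the top 20 was *Met*, with an SD of 0.86, and the first outside was *Scube3*, with 0.84. Without replicate 3 the SDs of these genes were 0.45 and 0.36.

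A group of the 20 most variable genes was high in replicate 3. *Calb2* had 260, 153 and 1295 normalized counts in replicates 1, 2 and 3, *Cdhr1*, a cadherin of photoreceptors and olfactory bulb neurons, 434, 154 and 1383, *Doc2g*, a double C2 domain protein, 192, 147 and 752, and *Thbs4*, a secreted thrombospondin, 228, 124 and 745. Without replicate 3 their SDs were 0.54, 1.05, 0.27 and 0.62, against 1.60, 1.58, 1.26 and 1.31 with it. These 4 genes are known in olfactory bulb neurons or along the path of cells that migrate to the bulb, and 8 such genes were summed as a list chosen after their values were seen. The list summed to 1321, 725 and 4901, with *Cdhr1* as the most abundant. Replicate 3 was highest in 8 of 8, against 30.7% of the 11891 genes, but the choice followed the values, so this count is no test. *Tbx21*, a transcription factor of the bulb's projection neurons, had 5.2, 0 and 132.2. Whether bulb tissue took part in replicate 3 was not tested.

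Genes of dividing cells and neuroblasts, which the subventricular zone beside the striatum holds in adults, were also among the variable genes. *Mki67*, a marker of proliferation, had 134, 55.7 and 187 normalized counts and *Cdca7*, a cell division gene, 169, 62.1 and 256. A list of 10 such genes, chosen after the values were seen, summed to 3512, 2452 and 4848, with *Dcx*, a microtubule protein of migrating neuroblasts, as the most abundant. Replicate 3 was highest in 8 of 10, against 30.7% of the 11891 genes, a count that the choice also favours. *Met*, a growth factor receptor, had 53.6, 83.8 and 177, and *Dnah9*, a dynein of motile cilia, 95.2, 43.3 and 188.

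A second group was high in replicate 1. *Abi3bp*, an extracellular matrix protein, had 1867, 429 and 446 normalized counts, *Ndst4*, a heparan sulfate enzyme, 586, 89.6 and 94.1, and *Nmbr*, the neuromedin B receptor, 261, 57.1 and 47.6. *Klhl14*, a Kelch family protein, had 220, 67.8 and 54.7, and *Dlk1*, an imprinted Notch-like ligand, 227, 91.5 and 38.5. *Dlk1* set replicate 3 apart about as much, at -1.88 (log2) against the others, beside 1.92 for replicate 1. The other genes of this group separated replicate 1 from both others, whereas the identity genes separated replicate 3. *Ptpn7*, a phosphatase, was low in replicate 3 alone at 243, 226 and 80.4, as were the chaperone *Hspa4l*, at 142, 169 and 42.0, and *Mlec*, a lectin of the endoplasmic reticulum, at 156, 141 and 43.9. Without that library the SDs of these 3 were 0.074, 0.17 and 0.096. *BC037034* was high in replicate 2, with 28.2, 232 and 63.9.

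The gene with the highest SD, *Zbed6*, had 412, 116 and 0 normalized counts and an SD of 4.58. That value rests on the 0 in replicate 3, since without it the SD was 1.29 and *BC037034* came first with 2.12. *Zbed6* lies at chr1:133655879-133660885 (GRCm38) and shares exon bases with *Zc3h11a* on the same strand, and *Zc3h11a* had 3439, 2792 and 2681. The split of reads between the 2 genes is therefore uncertain. *Lbhd1*, with 76.4, 82.8 and 245, likewise shares exon bases with *1810009A15Rik*. The SD of *Lbhd1* was 0.93, or 0.080 without replicate 3.

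Among the 6106 genes with a mean of at least 1000, stimulus-induced genes led. *Nr4a3*, a nuclear receptor induced by activity and hormones, had 1922, 520 and 991 normalized counts, *Sgk1*, a kinase induced by glucocorticoids, 4531, 1621 and 2353, and *Fosl2*, a transcription factor of the Fos family, 2390, 901 and 1270. In these 3 genes replicate 1 was the highest and replicate 2 the lowest. *Nr4a2*, a receptor of the same family as *Nr4a3*, had 1897, 1855 and 758. A list of 8 such genes, chosen after the values were seen, summed to 24131, 14536 and 15394, with *Klf9* as the most abundant. Replicate 1 was highest in 8 of 8, against 36.3% of the 11891 genes, but the choice followed the values, so this count is no test. *Per1*, *Sgk1* and *Cdkn1a* of this list are also in the clock and glucocorticoid list. *Tdrd7*, a Tudor protein, had 2186, 2257 and 928, the kinase *Tlk1* 3748, 3699 and 1622 and *Lrrc10b* 4313, 4907 and 2095. *Gfap* and *Hba-a2*, at 1295, 1942 and 3140, were also among the 10. *Ndn* was the first outside them at an SD of 0.629, or 0.192 without replicate 3.

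Many genes of this kind carry the cAMP response element near their start, so the letters TGACGT, 6 bases of that element, were searched on both strands in the 250 bases before each RefSeq start (GRCm38.p6). The complete palindrome counts on both strands. Of 12043 table genes with an entry, 10.5% held at least 1 match. Among the 12 immediate early genes, 6 of the 9 with an entry did, and among the 8 stimulus-induced genes 3 of 8 did. Of the 30 identity genes with an entry, 3 held a match. The upstream bases of the 3 stimulus-induced genes with a match are printed because these genes were highest together in replicate 1, all on the + strand, with matches in capitals. They lie at chr4:48045055-48045152 for *Nr4a3*, where the stretch ends before the first annotated exon and shows 2 of the 3 matches in the window, at chr11:69099902-69100151 for the clock gene *Per1* and at chr19:23140976-23141225 for *Klf9*. The *Per1* stretch lies inside the annotated gene, chr11:69095217-69109960, whereas those of *Nr4a3* and *Klf9* end directly before their annotated genes. All 8 stimulus-induced genes were highest in replicate 1, with or without a match. Of the 12 immediate early genes, 5 were highest there, against 36.3% of the 11891 genes. A link between a match and these values was not tested. A match is a description and not a binding site.
Nr4a3: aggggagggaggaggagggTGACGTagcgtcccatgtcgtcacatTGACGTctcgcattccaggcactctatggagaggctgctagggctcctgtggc
Per1: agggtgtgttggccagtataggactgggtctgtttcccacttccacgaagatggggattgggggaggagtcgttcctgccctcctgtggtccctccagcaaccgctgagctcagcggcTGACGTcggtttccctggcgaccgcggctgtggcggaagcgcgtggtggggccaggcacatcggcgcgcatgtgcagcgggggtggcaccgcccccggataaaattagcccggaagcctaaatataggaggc
Klf9: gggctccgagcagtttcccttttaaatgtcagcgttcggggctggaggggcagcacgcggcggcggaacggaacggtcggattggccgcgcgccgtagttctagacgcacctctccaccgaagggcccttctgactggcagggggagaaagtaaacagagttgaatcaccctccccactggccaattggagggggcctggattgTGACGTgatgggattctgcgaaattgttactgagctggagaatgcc

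*Per1* had 5457, 3344 and 3756 normalized counts in replicates 1, 2 and 3, and *Klf9*, a hormone-induced transcription factor, had 6750, 5628 and 5412. Replicates 2 and 3 lay close together in both. The circadian repressor *Nr1d1*, by contrast, was even at 4666, 4599 and 4650.

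The steadiest genes with a mean of at least 1000 were of varied function. *Stard7*, a lipid transfer protein, had 3132, 3134 and 3132 normalized counts and an SD of 0.00066 on the log2 scale. The autophagy adaptor *Tax1bp1* had 3977, 3984 and 3971. *Ftsj3*, *Zfp384*, *Rora*, *Syt5*, *Rtn2*, *Psma4*, *Sucla2* and *Psmb7* completed the 10, among them 2 proteasome subunits, a citric acid cycle enzyme, a nuclear receptor and a synaptotagmin. The 10 were chosen for their low SD, with a median of 0.0032. Within the heterozygous libraries their median SD of 0.164 was close to the 0.163 of all 6106 genes, and within the knock-out libraries it was 0.065 against 0.142.

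**Figure D4:**
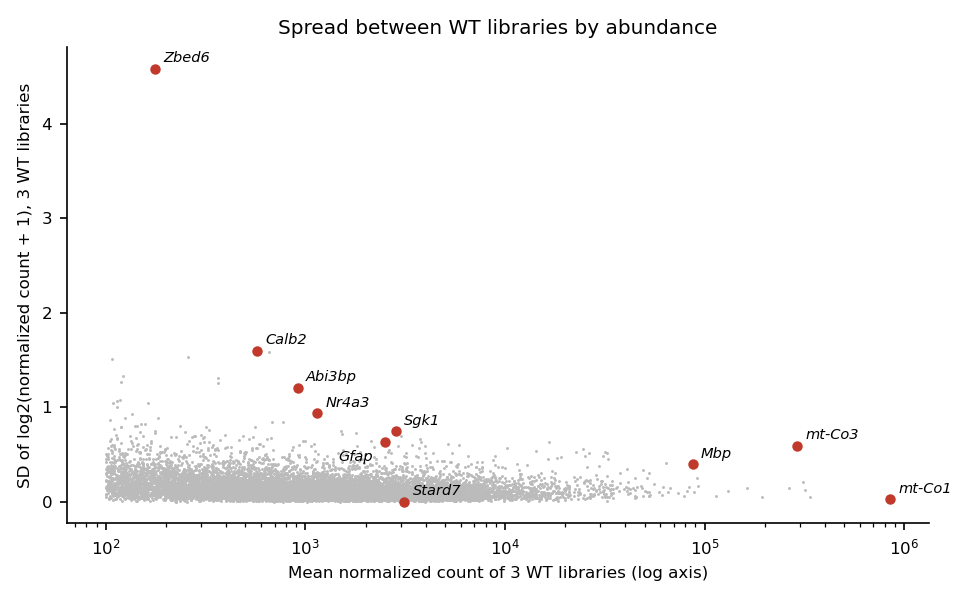
SD of log2(normalized count + 1) over the 3 WT libraries against mean normalized count, on a log axis, for the 11891 genes with a mean of at least 100. *Zbed6* lies at 4.58, while most genes lie near the median of 0.117, and *mt-Co3* at 0.59 stands out among abundant genes.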

How the data were processed

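The deposited signal, normalized counts per gene, was made by the authors with Salmon 0.9.1 against GRCm38, import by gene and DESeq2 1.19.11 size factors in R 3.6.0. Groups come from the sample labels, and each column name matched the title of 1 sample, which left 0 columns over. Depth in reads is unknown, so no counting interval is given and precision comes from the spread between mice. No test was made.

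Values were averaged over the 3 WT libraries in Python 3.11.15 with pandas 2.3.3. Length was that of the APPRIS principal transcript, else the longest coding transcript, in a GENCODE annotation of GRCm38, found for 15462 genes. Symbols were found for 15457 genes. Spread was the SD of log2(normalized count + 1). The ranking of genes by SD was the step tried on simulated data, with noise of equal size in every gene. The genes named were the top 20 by mean and per kilobase, all identity genes, the most abundant gene of each other list with its members under 10 or missing, the 20 most variable genes (mean of at least 100), and the 10 most variable and 10 steadiest (mean of at least 1000). Any further gene in the text was picked with its values in view, and some items under the rule are not reported here. The members and lists were chosen with earlier results of these data known. Alternatives were other scalings, lengths, filters, pseudocounts and measures of spread, and leaving out each library.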

Additional observations from a re-analysis of the deposited data

How the results depend on the processing

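The top 20 by count kept 19 or 20 genes under every alternative run, and the top 20 per kilobase kept 14 to 20. Genes reaching 50% of the per-kilobase sum rose from 373 to 908 without mitochondrial genes, by construction. Of the 20 most variable genes, 2 stayed in the top 20 when means of at least 10 were admitted, 1 with no filter and 1 with means of at least 1000, since these filters change the genes ranked. The ratio of the SD to the running median of genes of like mean kept 9, and leaving out each library kept 10 to 15. Genes with an SD of at least 0.5 numbered 775 with means of at least 10, 1639 with no filter, 43 with means of at least 1000, and 170 to 326 when each library was left out. Of the SDs of 59 named genes, 34 moved by over 1.5 times without replicate 3, 13 without replicate 1 and 8 without replicate 2. Under either scaling 10 moved as far, and with a pseudocount of 10 there was 1.

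The log2 of replicate 3 over the mean of the others kept its sign in the projection neuron, direct, indirect, oligodendrocyte, cortical and olfactory bulb lists under all scalings and with replicate 1 or 2 left out. The olfactory bulb list was chosen after its values were seen, so its sign is no test. This log2 was -0.59 for the direct pathway list without *Drd1*, against -0.71. It was 3.02 for the olfactory bulb list as a mean log2 over members, against 2.26, and the cause was not tested. In the other 19 lists, 17 of 114 recomputed values moved by more than the spread between replicates 1 and 2, of which 6 came without the most abundant gene, 5 as a mean log2 and 3 under each scaling. Upper-quartile scaling for list sums was chosen after seeing the data. Leaving out replicate 3 gives no value for this quantity. No paired analysis was possible because the results come from no test between groups. The 3 libraries of unknown depth limit all values to description.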
